A study of Mus musculus with 10 samples.

Results

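The genes described here are the sensors of double-stranded RNA and the transcription factors that stand between such a sensor and the interferon response: Ddx58, Ifih1, Dhx58 and Tlr3 among the sensors, Irf1, Irf3, Irf7 and Irf9 among the interferon regulatory factors (IRFs), and Stat2. They were chosen by name and found by their Ensembl identifiers, and all 9 were present among the 40620 genes of the count table. RNA-seq was performed on MC3T3-E1, a mouse pre-osteoblast line derived from calvaria and used here as 1 subclone, with no primary bone cells or second line beside it. The 10 libraries formed 5 stages with 2 replicates each, A and B. Subconfluent and confluent cells were in growth medium (αMEM with serum), and the 24 h, 14 d and 21 d cells were in the same medium with ascorbic acid and β-glycerophosphate, which drive osteogenic differentiation and mineralisation. The labels name no transgene, deletion, virus, interferon or added RNA in any group.

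Cells recognise viral or misplaced double-stranded RNA with cytosolic RIG-I-like helicases and, in endosomes, with Toll-like receptor 3. Ddx58 encodes RIG-I and Ifih1 encodes MDA5, which signal through the adaptor MAVS, whereas Dhx58 encodes LGP2, a relative that lacks the signalling domains and tunes the other two. Tlr3 signals through the adaptor TRIF. Both routes activate the kinases that phosphorylate IRF3 and IRF7, which then switch on type I interferon genes. Secreted interferon acts through its receptor and Janus kinases on STAT proteins, and STAT2 joins IRF9 in the complex ISGF3, which binds the interferon-stimulated response element (ISRE) of target genes. Several of these genes, Irf7, Irf9, Stat2 and the helicases among them, are themselves interferon targets, so sensor and response belong to a loop.

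The genes lie on GRCm38, the assembly also called mm10, as follows. Ddx58 (ENSMUSG00000040296) spans chr4:40203773-40239828 and Ifih1 (ENSMUSG00000026896) spans chr2:62595798-62646255. Dhx58 (ENSMUSG00000017830) spans chr11:100694884-100704271 and Tlr3 (ENSMUSG00000031639) spans chr8:45395665-45411080. Irf1 (ENSMUSG00000018899) spans chr11:53770014-53778374, Irf3 (ENSMUSG00000003184) chr7:44997648-45002848 and Irf7 (ENSMUSG00000025498) chr7:141262706-141266481. Irf9 (ENSMUSG00000002325) spans chr14:55603571-55610030 and Stat2 (ENSMUSG00000040033) spans chr10:128270559-128292849. All are protein coding, and the reads were counted per gene.

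Promoter windows running from 250 bases before to 50 bases after a RefSeq start (GRCm38.p6) were found for 8 of the 9 genes, and 2 starts were listed for Irf1 and for Irf9. The windows were searched on both strands for the core of the ISRE, GAAANNGAAA, and for the core of the gamma-activated site bound by STAT dimers, TTCNNNGAA, which reads the same on either strand. The ISRE core was present in the windows of 3 genes (Ddx58, Ifih1 and Stat2) and the gamma-activated core in that of 1 gene, Irf1 (its first listed start). Over all 32851 windows of the table, 3.44% held the ISRE core and 8.30% the gamma-activated core. Printed below are the 4 windows with a match, with the matched letters in capitals, and that of Irf7, one of the 2 genes with the largest rise from 14 d to 21 d, in which neither core was found.
Ddx58 promoter, chr4:40239776-40240075, minus strand: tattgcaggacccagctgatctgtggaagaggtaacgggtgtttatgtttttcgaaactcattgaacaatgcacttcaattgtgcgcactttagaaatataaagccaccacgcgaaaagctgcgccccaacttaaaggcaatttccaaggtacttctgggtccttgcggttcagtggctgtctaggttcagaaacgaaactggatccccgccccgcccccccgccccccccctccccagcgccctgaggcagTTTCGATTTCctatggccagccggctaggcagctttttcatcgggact
Ifih1 promoter, chr2:62646206-62646505, minus strand: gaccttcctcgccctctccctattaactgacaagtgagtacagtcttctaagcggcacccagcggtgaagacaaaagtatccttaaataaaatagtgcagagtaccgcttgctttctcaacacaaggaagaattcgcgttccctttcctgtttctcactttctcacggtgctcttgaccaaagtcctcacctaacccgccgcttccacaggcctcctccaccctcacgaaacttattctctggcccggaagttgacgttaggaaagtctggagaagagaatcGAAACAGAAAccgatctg
Stat2 promoter, chr10:128270248-128270547, plus strand: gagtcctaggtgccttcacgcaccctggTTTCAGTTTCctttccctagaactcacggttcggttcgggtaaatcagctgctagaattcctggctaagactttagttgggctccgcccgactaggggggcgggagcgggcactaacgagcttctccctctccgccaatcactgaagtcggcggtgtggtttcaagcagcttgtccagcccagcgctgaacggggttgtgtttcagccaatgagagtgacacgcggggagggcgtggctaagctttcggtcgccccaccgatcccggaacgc
Irf1 promoter, chr11:53769764-53770063, plus strand: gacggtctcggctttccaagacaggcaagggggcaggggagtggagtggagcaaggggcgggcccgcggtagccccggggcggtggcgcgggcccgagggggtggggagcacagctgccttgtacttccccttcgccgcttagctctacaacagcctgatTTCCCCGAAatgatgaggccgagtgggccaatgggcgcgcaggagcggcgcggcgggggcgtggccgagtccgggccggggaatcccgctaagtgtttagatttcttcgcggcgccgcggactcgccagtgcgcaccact
Irf7 promoter, chr7:141266375-141266674, minus strand: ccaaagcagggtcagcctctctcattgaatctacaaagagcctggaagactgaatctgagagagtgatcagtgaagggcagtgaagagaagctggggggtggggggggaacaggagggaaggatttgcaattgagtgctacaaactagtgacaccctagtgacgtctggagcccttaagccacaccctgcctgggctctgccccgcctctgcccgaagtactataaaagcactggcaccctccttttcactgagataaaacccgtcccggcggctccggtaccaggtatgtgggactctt
The Stat2 match lay 222 to 213 bases before the start, and the Irf1 match 90 to 82 bases before it. The matches of Ddx58 (bases 2 to 11) and Ifih1 (bases 32 to 41, counting the start as 0) lay downstream of the start. The windows of Tlr3, Irf3, Irf7 and Irf9 held neither core, which says only that these letters are not in these windows. A match is a description of sequence, and occupancy was not measured.

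Levels are given as RPKM, reads scaled by gene length and library size, as deposited, so that genes of unequal length can be set side by side. Differences are log2 fold changes of the counts from the edgeR quasi-likelihood test, each with its standard error (SE). P-values were adjusted by the Benjamini-Hochberg method over the 20808 genes tested, and a gene was called where the adjusted p was under 0.05 and the change more than 2-fold. All 9 genes were abundant enough to be tested. Nothing in the labels says that A and B were separate cultures, so the p-values measure the spread between these libraries, which may be technical. By their column names, 14 d and 21 d libraries were indexed differently from those of subconfluent, confluent and 24 h cells, and a difference between early and late stages therefore cannot be told apart from the library set. The comparison of 21 d against 14 d lies within one set.

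Total counts ran from 44736156 to 162939333 per library. All 10 osteoblast markers examined were expressed, and Ibsp, encoding bone sialoprotein, stood at 20.0 and 11.8 RPKM in subconfluent cells and at 4081 and 4374 RPKM at 14 d. At 21 d Ibsp stood at 2570 and 2509 RPKM. The 10 markers summed to 20251 to 21959 RPKM at 14 d and to 12741 to 13949 RPKM at 21 d, most of it Col1a1 and Col1a2. Between these stages Alpl and Sp7 were lower (-1.47 and -0.83, adjusted p = 0.00064 and 0.0014). Dmp1 and Spp1 were higher (1.88 and 2.05, adjusted p = 0.0044 and 0.001). Of the 8 markers of lymphocytes and plasmacytoid dendritic cells, 6 never exceeded 3 counts in any library, and their summed level was 0.052 to 0.127 RPKM throughout. Of the 12 macrophage markers, Ptprc (CD45) had no count in any library, which allows up to 3 counts, and Adgre1 had at most 1. Spi1 and Fcer1g were called higher at 21 d than in subconfluent cells (4.72 and 1.57, adjusted p = 0.014 and 0.0058), where 16.3% of all genes tested were. Spi1, with at most 17 counts, was also called higher at 14 d than in confluent cells (4.25, adjusted p = 0.036), where 9.15% were. The macrophage markers without Tyrobp summed to 20.8 to 34.1 RPKM over all libraries, with 27.9 to 29.2 RPKM at 14 d and 28.4 to 30.03 RPKM at 21 d, most of it Lyz2, Itgam, Csf1r and Cd14. Tyrobp alone stood at 179 RPKM in confluent B, 214 RPKM in 14 d B and 256 RPKM in 21 d A, and at 0.84 RPKM or less elsewhere, a split that followed neither stage nor replicate. In 24 h A, Stat3 stood at 6.22 RPKM against 20.0 RPKM in 24 h B, and Jak1 at 9.95 against 25.4 RPKM. Across genes, the difference A minus B at 24 h had a Spearman's rho of -0.265 with gene length. The rho was 0.172 in subconfluent, 0.233 in confluent, 0.052 in 14 d and 0.123 in 21 d cells. Its sign depends on which library bears the letter A, and its size at 24 h was near that in confluent cells. The 6 endothelial markers summed to 0.105 to 0.138 RPKM at 14 d and to 0.320 to 0.495 RPKM at 21 d, with Vwf the largest part. The 6 osteoclast markers summed to 76.9 to 77.3 RPKM in subconfluent, 127 to 132 RPKM at 14 d and 165.6 to 179.7 RPKM at 21 d cells, nearly all of it Ctsk, while Calcr and Dcstamp had no count. The part of these markers, and of the 24 h A library, in the results below was not tested.

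The 9 genes differed in their course. Dhx58 climbed steeply before 14 d and then stayed high. Irf7, Irf9, Ifih1, Tlr3, Ddx58 and Stat2 had their largest step, or their recovery, between 14 d and 21 d. Irf1 went down in small steps to 14 d and stood slightly higher in RPKM at 21 d. Irf3 went up in small steps from subconfluent to 21 d cells, with 24 h and 14 d overlapping. In the test over all 5 stages, 9 of 9 genes had an adjusted p under 0.05 (from 3.3e-05 for Dhx58 to 0.014 for Ifih1), where 48.9% of all genes tested did.

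**Figure D1:**
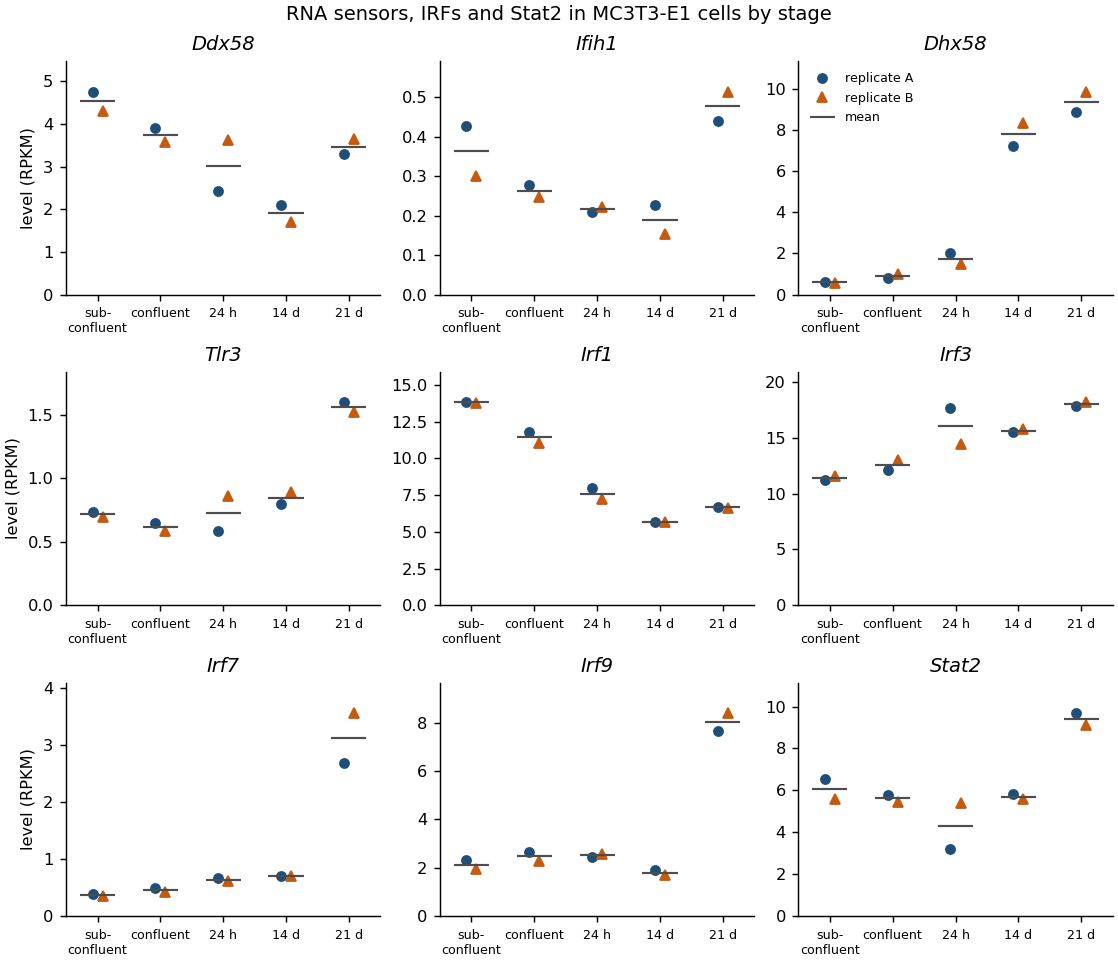
RPKM (vertical axes, linear and starting at 0) of each of the 9 genes at the 5 stages (horizontal axes), with replicate A as circles, replicate B as triangles and the mean of the 2 as a bar. Dhx58 has its step before 14 d, while Irf7 and Irf9 stay at or below 0.700 and 2.67 RPKM up to 14 d and stand at 2.68 to 3.56 and 7.65 to 8.41 RPKM at 21 d.

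Among the sensors, Dhx58 changed most. Its RPKM was 0.602 (A) and 0.580 (B) in subconfluent, 0.798 and 1.01 in confluent, 2.03 and 1.46 in 24 h, 7.21 and 8.35 in 14 d, and 8.85 and 9.86 in 21 d cells. The replicates of no stage overlapped those of another, and the order of the stages was that of the culture time. The mean rose from 0.591 ± 0.0153 RPKM (SD, n = 2) in subconfluent to 9.35 ± 0.715 RPKM (SD, n = 2) in 21 d cells. Dhx58 was higher at 14 d than at 24 h (log2 fold change 2.27, SE 0.22, adjusted p = 0.00095), and higher at 14 d than in confluent cells (3.31, SE 0.23, adjusted p = 1e-04). From 14 d to 21 d the fitted difference was only 0.19 (SE 0.21, adjusted p = 0.68). Between confluent cells and 24 h the value was 1.03 (SE 0.21, adjusted p = 0.038), which lost the threshold when any 1 of the subconfluent, confluent, 14 d or 21 d libraries was left out (adjusted p = 0.081 to 0.22) and fell to 0.715 without 24 h A (adjusted p = 0.048).

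Dhx58 shares 141 exonic bases, 4.31% of its own, with Dhx58os on the opposite strand. Without a stated strand setting, reads of the pair over the shared bases cannot be told apart. Dhx58os had a mean of 0.632 RPKM in confluent, 7.76 RPKM at 14 d and 6.53 RPKM at 21 d cells, and its own log2 fold change for 14 d against confluent was 3.80 (adjusted p = 0.00062). How far the reads of the one gene enter the count of the other was not tested.

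Ddx58, encoding RIG-I, went the other way first. Its RPKM was 4.76 (A) and 4.31 (B) in subconfluent, 3.91 and 3.58 in confluent, 2.42 and 3.61 in 24 h, 2.10 and 1.70 in 14 d, and 3.29 and 3.64 in 21 d cells. The 14 d libraries were the lowest of all, and 21 d overlapped confluent and 24 h. Ddx58 fell by 0.76 on the log2 scale from confluent to 14 d (SE 0.17, adjusted p = 0.014) and rose by 0.79 from 14 d to 21 d (SE 0.17, adjusted p = 0.029), both under 2-fold. The 2 comparisons share the 14 d libraries. Against subconfluent cells the 21 d value was -0.27 (SE 0.17, adjusted p = 0.22). Without any 1 of the confluent, 14 d or 21 d libraries the rise to 21 d was no longer past the threshold, at 0.67 to 0.93 (adjusted p = 0.058 to 0.22), and the fall to 14 d was lost without confluent A or without 14 d B (highest adjusted p = 0.099).

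Ifih1, encoding MDA5, had the lowest mean RPKM of the 9 genes at every stage. In subconfluent cells its mean was close to that of Irf7 (0.363 against 0.367 RPKM), and in subconfluent A it exceeded Irf7. Its RPKM was 0.425 (A) and 0.301 (B) in subconfluent, 0.278 and 0.247 in confluent, 0.209 and 0.222 in 24 h, 0.226 and 0.1525 in 14 d, and 0.438 and 0.514 in 21 d cells. The 21 d pair was above every other library, though A exceeded subconfluent A only slightly, and the 14 d and 24 h pairs overlapped. The rise from 14 d to 21 d was called (log2 fold change 1.25, SE 0.25, adjusted p = 0.022), and against subconfluent cells the value was 0.50 (SE 0.25, adjusted p = 0.13). The lowest count of Ifih1 was 41, in 14 d B. The call did not survive leaving out 14 d A (1.55, adjusted p = 0.051), 14 d B (1.01, adjusted p = 0.16), 21 d A (1.36, adjusted p = 0.088) or 21 d B (1.12, adjusted p = 0.14).

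Tlr3, the endosomal receptor, stayed below 1 RPKM up to 14 d. Its RPKM was 0.737 (A) and 0.698 (B) in subconfluent, 0.650 and 0.582 in confluent, 0.587 and 0.865 in 24 h, 0.797 and 0.891 in 14 d, and 1.60 and 1.52 in 21 d cells. Both 21 d libraries stood above all others, whereas 24 h overlapped its neighbours in order, subconfluent and 14 d. Tlr3 was called higher at 21 d than in subconfluent cells (log2 fold change 1.24, SE 0.19, adjusted p = 0.0013). From 14 d to 21 d it rose by 0.81 (SE 0.19, adjusted p = 0.036), which lost the threshold without any 1 of the subconfluent, confluent, 14 d or 21 d libraries (0.71 to 0.91, adjusted p = 0.058 to 0.22). For 14 d against confluent the value was 0.67 (SE 0.19, adjusted p = 0.031), lost in the same way (highest adjusted p = 0.16). An antisense gene, Gm45542, shares 381 bases with its exons.

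The make-up of the RIG-I-like family changed over the culture. Ddx58 held 82.25% and 83.0% of the summed RPKM of the 3 helicases in subconfluent A and B, 78.4% and 73.95% in confluent, 52.0% and 68.2% in 24 h, 22.0% and 16.7% in 14 d, and 26.1% and 26.0% in 21 d cells. Dhx58 held 10.4% and 11.2% in subconfluent, 43.5% and 27.6% at 24 h, 75.6% and 81.8% at 14 d, and 70.4% and 70.35% at 21 d. Ifih1 held between 1.495% (14 d B) and 7.35% (subconfluent A). The sum itself went from 5.79 and 5.19 RPKM in subconfluent to 12.6 and 14.0 RPKM in 21 d cells. LGP2 message thus exceeded RIG-I message in all 4 late libraries and in none of the 6 earlier ones. The ratio Dhx58 to Ddx58 was 0.126 and 0.135 in subconfluent, 0.837 and 0.405 in 24 h, and 2.69 and 2.71 in 21 d cells. These are descriptions of levels with no test.

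**Figure D2:**
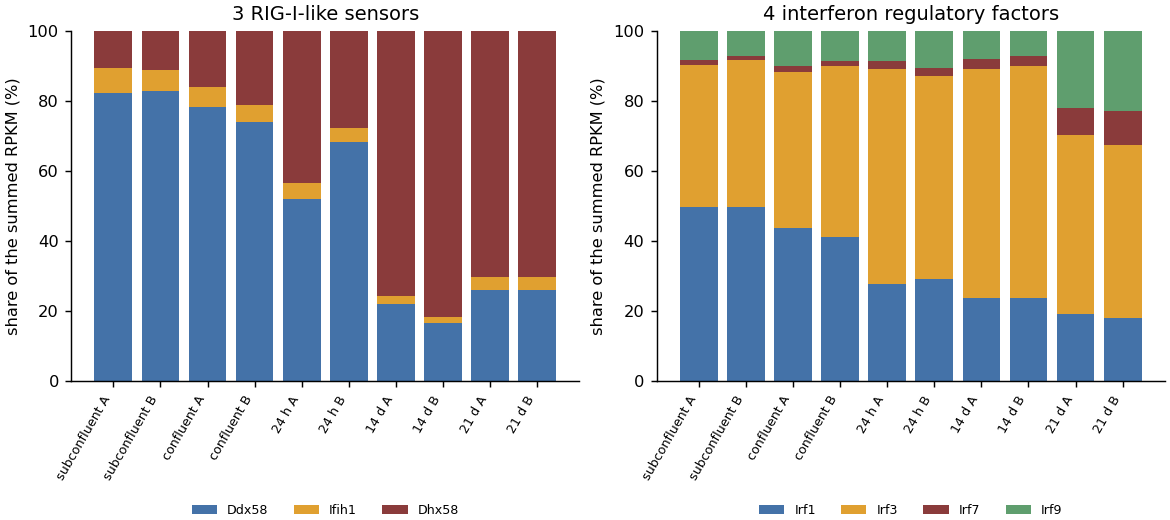
Share of the summed RPKM (%, 0 to 100) in each of the 10 libraries held by the RIG-I-like sensors Ddx58, Ifih1 and Dhx58 (left) and by Irf1, Irf3, Irf7 and Irf9 (right). Dhx58 takes 70.35% or more of the sensor sum at 14 d and 21 d, and Irf7 and Irf9 hold their largest shares at 21 d.

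Of the IRFs, Irf7 and Irf9 stood out at 21 d. Irf7, the factor that amplifies type I interferon transcription, had an RPKM of 0.390 (A) and 0.343 (B) in subconfluent, 0.489 and 0.428 in confluent, 0.669 and 0.608 in 24 h, 0.698 and 0.700 in 14 d, and 2.68 and 3.56 in 21 d cells. No stage overlapped another, yet the first 4 stages lay within 0.343 to 0.700 RPKM. Irf7 was 4.24-fold higher at 21 d than at 14 d (log2 2.08, SE 0.21, adjusted p = 0.0013) and 9.17-fold higher than in subconfluent cells (log2 3.20, SE 0.22, adjusted p = 3.1e-05). Its value for 14 d against confluent was 0.83 (SE 0.21, adjusted p = 0.022), under 2-fold, and it lost the threshold without either library of confluent or of 14 d (highest adjusted p = 0.12). Counts were low, from 23 in subconfluent B to 616 in 21 d B. Irf7 shares 45 exonic bases with Phrf1 on the opposite strand, whose change from 14 d to 21 d was -0.16 (adjusted p = 0.55).

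Irf9, the DNA-binding part of ISGF3, had an RPKM of 2.32 (A) and 1.93 (B) in subconfluent, 2.67 and 2.26 in confluent, 2.46 and 2.58 in 24 h, 1.90 and 1.69 in 14 d, and 7.65 and 8.41 in 21 d cells. Subconfluent, confluent and 24 h overlapped in that order, 14 d lay just below them, and 21 d lay far above. Irf9 rose 4.25-fold from 14 d to 21 d (log2 2.09, SE 0.15, adjusted p = 0.00044) and was 4.09-fold higher at 21 d than in subconfluent cells (log2 2.03, SE 0.15, adjusted p = 3.6e-05). For 14 d against confluent its value was -0.24 (SE 0.14, adjusted p = 0.25). Rnf31, which overlaps Irf9 by 123 exonic bases on the same strand, had 4.44 RPKM in confluent, 3.37 RPKM at 14 d and 4.76 RPKM at 21 d cells, a change of 0.43 on the log2 scale from 14 d to 21 d (adjusted p = 0.047).

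Irf1, which is induced by interferon gamma and inflammatory signals, had an RPKM of 13.8 in both subconfluent libraries, 11.8 (A) and 11.1 (B) in confluent, 7.96 and 7.23 in 24 h, 5.63 and 5.67 in 14 d, and 6.70 and 6.65 in 21 d cells. No stage overlapped another. Irf1 fell by 0.80 on the log2 scale from confluent to 14 d (SE 0.10, adjusted p = 0.0011) and by 0.93 from subconfluent to 21 d (SE 0.10, adjusted p = 0.00019), and was thus not called at 2-fold. Between confluent and 24 h the value was -0.50 (SE 0.10, adjusted p = 0.032), lost without any 1 of the subconfluent, confluent, 14 d or 21 d libraries (highest adjusted p = 0.19). From 14 d to 21 d it was 0.17 (SE 0.10, adjusted p = 0.37). Gm17334 shares 135 exonic bases with Irf1 on the opposite strand. Its own value was -0.55 for 14 d against confluent (adjusted p = 0.21) and -0.88 for 21 d against subconfluent cells (adjusted p = 0.045).

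Irf3, the constitutive factor that the sensor kinases phosphorylate first, had an RPKM of 11.2 (A) and 11.6 (B) in subconfluent, 12.1 and 13.1 in confluent, 17.7 and 14.4 in 24 h, 15.5 and 15.8 in 14 d, and 17.8 and 18.2 in 21 d cells. The 24 h pair spanned the 14 d pair, and the other neighbours in order were apart. Irf3 rose by 0.53 on the log2 scale from confluent to 14 d (SE 0.13, adjusted p = 0.018) and by 0.77 from subconfluent to 21 d (SE 0.13, adjusted p = 0.002), the former lost without any 1 of the subconfluent, confluent or 14 d libraries (highest adjusted p = 0.11). From 14 d to 21 d its value was 0.13 (SE 0.13, adjusted p = 0.64). Its spread over the stages was the narrowest of the 9 genes, with the highest stage mean 1.58 times the lowest. Bcl2l12, which shares 88 exonic bases with it on the opposite strand, had a change of -0.21 from confluent to 14 d (adjusted p = 0.40).

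Within the sum of these 4 IRFs, Irf1 went from 49.8% in both subconfluent libraries to 19.2% and 18.1% in 21 d A and B. Irf3 peaked at 14 d (65.3% and 66.2%). Irf9 held 6.97% to 10.4% in the first 8 libraries and 21.9% and 22.8% at 21 d, and Irf7 went from 2.94% in both 14 d libraries to 7.69% and 9.67%. Irf3 still exceeded Irf7 in every library, the ratio Irf7 to Irf3 being 0.150 and 0.196 at 21 d against 0.0295 to 0.0450 before.

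Stat2, the STAT that joins IRF9 in ISGF3, had an RPKM of 6.56 (A) and 5.57 (B) in subconfluent, 5.80 and 5.46 in confluent, 3.20 and 5.38 in 24 h, 5.81 and 5.60 in 14 d, and 9.70 and 9.13 in 21 d cells. The first 4 stages were close apart from 24 h A, and both 21 d libraries lay above all others. Against subconfluent cells the 21 d value was 0.75 (SE 0.20, adjusted p = 0.015), lost without subconfluent B, 21 d A or 21 d B (highest adjusted p = 0.099). Against 14 d it was 0.65 (SE 0.20, adjusted p = 0.087), past the threshold with DESeq2, with only these groups fitted, and once the 24 h libraries, or either of them, were left out (lowest adjusted p among single omissions 0.0024). Both Irf9 and Stat2 were higher in the 21 d libraries than in any 14 d library. The ratio Irf9 to Stat2 was 0.302 to 0.460 in the subconfluent, confluent and 14 d libraries, 0.769 and 0.480 at 24 h, and 0.789 and 0.921 at 21 d.

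Read by comparison, 3 of the 9 genes were called between 14 d and 21 d (Ifih1, Irf7 and Irf9), where 3.97% of all genes tested were called and 1.52% were called higher. At any fold 5 of 9 passed, all higher, where 9.72% of all genes passed in either direction. The median log2 change of the 9 was 0.79, against -0.03 over all genes tested. The libraries of this comparison share their index set. In bulk RNA, more RNA per cell and a larger share of cells with that RNA cannot be told apart.

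For 14 d against confluent cells, 1 of 9 was called (Dhx58), a share near the background, where 13.0% of all genes were called and 9.15% were called higher. At any fold 6 of 9 passed, 4 higher and 2 lower, where 32.1% of all genes did. For 21 d against subconfluent cells, 4 of 9 were called, all higher (Dhx58, Tlr3, Irf7 and Irf9), where 27.6% of all genes were called and 16.3% were called higher. At any fold 7 of 9 passed, where 50.7% of all genes did. Both comparisons cross the library sets.

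In the short steps, 0 of 9 were called between subconfluent and confluent cells (2 had an unadjusted p under 0.05, and DESeq2 also called 0), where 1.43% of all genes were called. Dhx58 was the 1 gene called between confluent and 24 h, where 2.13% were, and the 1 gene called between 24 h and 14 d, where 5.98% were.

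**Figure D3:**
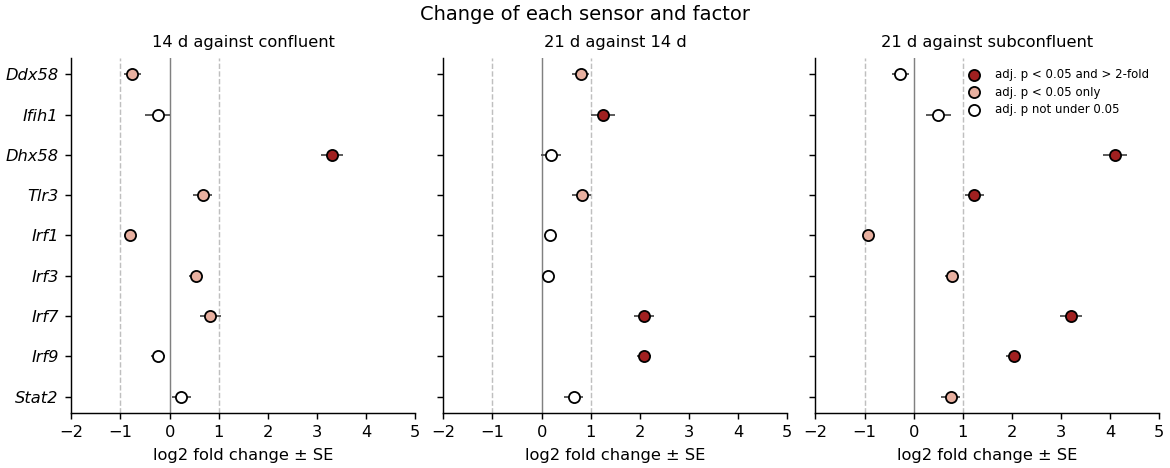
Log2 fold change (horizontal axes) of each of the 9 genes in 3 comparisons, from the edgeR fit to all 10 libraries, with bars of 1 SE and dashed lines at 2-fold. Filled red points are past both thresholds, such as Dhx58 at 3.31 in 14 d against confluent and Irf7 and Irf9 at 2.08 and 2.09 in 21 d against 14 d.

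Of 14 sensor adaptors and kinases, all tested, 0 were called between 14 d and 21 d, where 3.97% of all genes tested were. At any fold 1 was higher (Ticam1, encoding TRIF, the adaptor of Tlr3, by 0.50, adjusted p = 0.014) and 1 lower (Cgas, the DNA sensor, by -0.99, adjusted p = 0.024). Their median was 0.04. Mavs, the adaptor of the helicases, was at 9.02 to 11.8 RPKM in all 10 libraries. Over the whole series Cgas fell by 2.23 (adjusted p = 0.00011) and Rnf135, a ubiquitin ligase of RIG-I, rose by 1.04 (adjusted p = 0.00091), while Tmem173 (STING) was called higher at 14 d than in confluent cells by 1.03 (adjusted p = 0.0015).

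Among 11 other Toll-like receptors and partners, 7 were tested. Tlr2, a receptor of bacterial lipoproteins, was the 1 called higher at 21 d than at 14 d (1.27, adjusted p = 0.00036), where 1.52% of all genes tested were. Tlr1 was called lower at 14 d than in confluent cells (-1.33, adjusted p = 0.0039) and lower at 21 d than in subconfluent cells (-1.23, adjusted p = 0.0029). The other endosomal receptors of nucleic acid, Tlr7, Tlr8, Tlr9 and Tlr13, had at most 8 counts in any library. Of 5 other IRFs only Irf2 and Irf5 were tested, and Irf5 fell from 15.2 and 14.0 RPKM in subconfluent to 3.27 and 3.41 RPKM in 21 d cells (-2.01, adjusted p = 1.2e-05). Irf8, the factor of myeloid cells, had at most 3 counts. Of 5 other STATs listed, 4 were tested. For 21 d against 14 d, 14 d against confluent and 21 d against subconfluent cells 0 of these were called. Of all genes tested, 3.97%, 13.0% and 27.6% were called there.

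Of 10 interferon receptors and Janus kinases, 9 were tested and 0 were called between 14 d and 21 d, where 3.97% of all genes tested were. Their median was 0.13. Ifnar1 and Ifnar2, the receptor of type I interferon, were at 5.85 to 9.14 and 10.7 to 13.7 RPKM throughout. Jak2 was called higher at 14 d than in confluent cells (1.24, adjusted p = 0.00097).

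Interferon messages themselves were at or near 0 counts. Of 20 interferon genes 9 had no count in any library and 18 had at most 3 in any, and Ifnb1 had 1 count among the 1015103989 counts of all libraries. A count of 0 allows up to 3 counts, or 0.0184 to 0.0671 CPM in the largest and smallest library, counting error only. Ifnz was the 1 gene tested, at 0.29 to 0.64 RPKM, with 0.34 for 21 d against 14 d (adjusted p = 0.61). Ifnl2 had 115 counts in 24 h A and none elsewhere.

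Of 12 negative regulators, all tested, 2 were called between 14 d and 21 d, both higher, where 1.52% of all genes tested were called higher. Usp18, the interferon-induced protease that removes ISG15 and blocks the receptor, was at 0.16 and 0.15 RPKM in 14 d and 1.71 and 1.88 RPKM in 21 d cells (3.44, SE 0.28, adjusted p = 0.00068). Nlrc5 fell by 1.22 from confluent to 14 d (adjusted p = 0.0098) and rose by 1.24 to 21 d (adjusted p = 0.024). Of 22 interferon-stimulated effectors, 20 were tested and 9 were called between 14 d and 21 d, all higher, where the same 1.52% of all genes were, namely Ifi44, Rtp4, Ifit3, Ifit1, Oasl2, Parp14, Mx2, Gbp3 and Isg15. Their median was 2.11. Ifi44 rose by 3.56 and Oasl2 by 2.91 in that step. For 14 d against confluent, which shares the 14 d libraries and crosses the library sets, 3 were called higher, where 9.15% of all genes tested were. These were Oas2 (5.45, SE 1.02, adjusted p = 0.0063), Oas3 (4.21, SE 0.55, adjusted p = 0.0014) and Xaf1 (1.03, adjusted p = 0.0059). Oas2 and Oas3 started near 0, at 0.0265 and 0 RPKM and at 0.0113 and 0.0195 RPKM in confluent A and B. Ifi44 was called lower (-1.34, adjusted p = 0.0011), and Isg15 fell by 0.70 (adjusted p = 0.028). In 21 d against subconfluent cells 13 of the 20 tested effectors were called, all higher, where 16.3% of all genes tested were called higher. Bst2, Lgals3bp and Oas1a were among the 13 (1.498, 1.23 and 3.49).

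**Figure D4:**
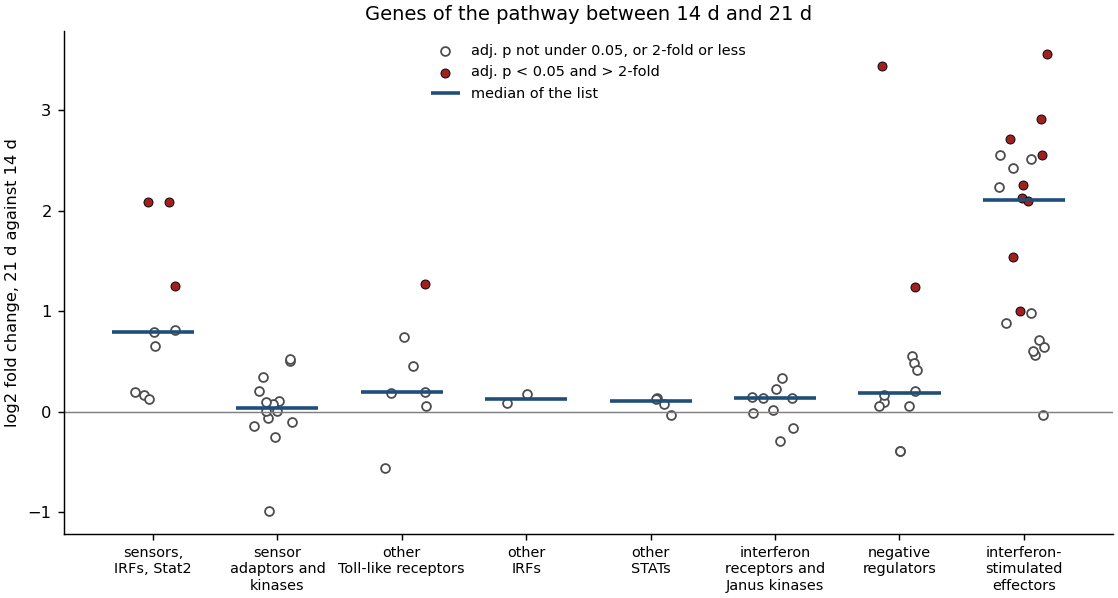
Log2 fold change from 14 d to 21 d (vertical axis) of the tested genes listed here, apart from the interferon genes, by group (horizontal axis). Filled red points are past both thresholds, and a blue bar marks the median of the group. The 9 sensors and factors have a median of 0.79 and the effectors 2.11. The sensor adaptors and kinases have a median of 0.04, with Cgas at -0.99, and the interferon receptors and Janus kinases one of 0.13.

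Among 14957 other genes whose mean reached 1 CPM (counts scaled to library size), those with the course most like each gene were ranked by Pearson's r of log2 CPM over the 10 libraries, which share stages and library sets. For Ddx58 they included Cdc42se2 and Aldh18a1 (r = 0.97 and 0.96), and for Ifih1 Fuca2, Canx and Pdia4 (0.93, 0.93 and 0.92). For Dhx58 they were Chadl, Tmbim1 and Cnmd (0.994 to 0.995). For Tlr3 they were Gm6568, Tm9sf2 and Lmbrd1, for Irf1 Nmt1, Sfrp2 and Ugp2, and for Irf3 Use1, Mettl23 and Gm13408. For Irf7 they were Cyp2c23, Pcid2 and Phyhd1, for Irf9 Slc3a2, Med12l and Usp11, and for Stat2 Pknox2, Ubxn4 and Ssh2. By Spearman's rho, with ties cut in list order, only Tm9sf2 for Tlr3 and Med12l for Irf9 stayed among the first 3. Use1 and Mettl23 nonetheless had a rho of 1.0 with Irf3, the highest possible, tied with other genes. Among the 9 genes themselves r ran from -0.90 (Dhx58 with Irf1) to 0.92 (Tlr3 with Irf7, and Irf7 with Irf9).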

How the data were processed

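RNA of 10 MC3T3-E1 samples was sequenced as paired-end reads. Per the labels, the submitters' processing notes name FastQC, TopHat2 (2.0.9), R (3.0.1) and mm10, and the counting tool, annotation release and strand setting were not given in the sources used here. The authors deposited whole-number counts per Ensembl gene and RPKM values, and the sum of the counts was 1.4431 to 1.6013 times the number of reads that the RPKM imply. The last line of the RPKM table was cut short and was left out. Symbols and overlaps came from GENCODE vM21 (39547 of 40620 identifiers matched), promoter sequences from RefSeq. Counts were filtered with edgeR's filterByExpr (20808 genes left), scaled by TMM and fitted over the 5 stages with edgeR (4.0.16, quasi-likelihood, two-sided), which was checked on simulated counts. Alternatives used DESeq2 (1.42.0) and limma (3.58.1) on log2(RPKM + 1) and log2(RPKM + 0.1), other scalings, filters and thresholds, a replicate block, and each library left out. All 9 genes are reported, with every gene of the fixed lists called in 21 d against 14 d, 14 d against confluent or 21 d against subconfluent cells or needed to describe a role, and the 3 genes nearest in course to each. The genes and lists were chosen with earlier results of these data known. One gene of the lists is not reported here.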

Additional observations from a re-analysis of the deposited data

How the results depend on the processing

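Of 657 alternative values for the changes of single genes, none turned direction, 565 stayed on their side of the threshold, 83 lost it and 9 gained it. The calls of Dhx58 for 14 d against 24 h and against confluent, of Irf7 and Irf9 for 21 d against 14 d, and of Dhx58, Tlr3, Irf7 and Irf9 for 21 d against subconfluent cells kept an adjusted p under 0.05 in every alternative run. On log2(RPKM + 1), however, the change of Tlr3 from subconfluent to 21 d was 0.58 and that of Ifih1 from 14 d to 21 d was 0.31, both under 2-fold, which left 3 called in the former comparison and 2 in the latter. The number of the 9 genes called between confluent cells and 24 h was 1 and became 0 with library size alone, with the replicate block, with only the 2 groups compared, with limma on either RPKM scale and at more than 4-fold, 2 at any fold, and 0 to 1 with single libraries left out. At any fold the number was 5 for 21 d against 14 d, 6 for 14 d against confluent and 7 for 21 d against subconfluent cells. For 14 d against confluent it was 2 with library size alone and with limma on log2(RPKM + 0.1), Irf1 being the second. With single libraries left out it was 2 to 3 for 21 d against 14 d, and 7 to 9 of 9 differed over the stages, the lowest without 21 d A or 21 d B. Library size alone moved the median of all genes by -0.229 for 14 d against confluent, by -0.155 for 21 d against subconfluent and by -0.129 for 24 h against confluent, and upper-quartile factors by 0.128 for 21 d against subconfluent, against TMM. The differences between A and B correlated at -0.184 to 0.10 between stages, a check that cannot show whether the letters mark shared cultures or days. With the replicate block the number called between 14 d and 21 d was 3, and Ddx58 and Tlr3 reached an adjusted p of 0.061 and 0.066. Summing the 2 lanes of 14 d A and 21 d B, chosen after seeing the data, moved no count of calls. Leaving out 1 of 2 libraries assumes that the lone library varies like the rest. The cause of the other differences was not tested. The lowest counts, 23 for Irf7 and 41 for Ifih1, limit the precision of these genes.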
